A study of Mus musculus with 6 samples.

Results

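The genes examined here encode the ligands, receptors and binding proteins of the insulin-like growth factor (IGF) system, 10 of the 55401 genes in the count table. They were taken by symbol and mapped to the Ensembl gene identifiers of the table, and cover the ligands Igf1 and Igf2, the receptors Igf1r and Igf2r, and the binding proteins Igfbp2, Igfbp3, Igfbp4, Igfbp5, Igfbp6 and Igfbp7. IGF ligands are secreted growth factors that act through the tyrosine kinase receptor IGF1R and its insulin receptor substrates, whereas IGF2R takes up and degrades IGF2 and also carries lysosomal enzymes. The IGF-binding proteins hold the ligands outside the cell, limit or prolong their access to the receptor, and release them when cut by proteases such as pappalysin. In bone, IGF1 and IGF2 are made by cells of the osteoblast lineage and stored in the matrix together with IGFBP5, and IGF1 is also made by fat cells and macrophages.

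C3H10T1/2 is an established line of mouse embryonic mesenchymal cells with multilineage differentiation potential. RNA was sequenced from 3 derivatives that express a short hairpin RNA, which was a control hairpin in shControl, a hairpin against the 3′ untranslated region of Nfib in shNFIB, and a hairpin against the transcript of Kmt2a, the gene for the histone methyltransferase MLL1, in shMLL1. Day 0 cells were grown to confluence and left untreated. Osteogenic medium, which held dexamethasone at 0.1 µM, the phosphate donor β-glycerophosphate at 20 mM and ascorbate 2-phosphate at 100 µg/ml, was then given for 7 days. The series holds 6 libraries, 1 per line and day, so that a difference between a pair of libraries had no replicate check, and each control library served both knockdown comparisons of its day. The total count was 32662704 in shControl, 34774066 in shNFIB and 30838517 in shMLL1 at day 0, and 29086652, 30406559 and 21608680 in the same order at day 7. Levels are given as CPM, which are counts scaled to library size with factors from the trimmed mean of M-values, and levels of different genes were compared as CPM per kb of exon. The 95% intervals cover counting error only, and reads are not independent molecules. Whether each derivative is a clone or a pool is not given in the sources used here. A gene with at most 3 counts in a library was taken to be at the floor, which ranged from 0.0939 to 0.123 CPM. In ratios, 0 counts were set to 3 and the counting limit is given, and 1 to 3 counts were kept as they were, with their interval.

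The knockdown of each target was looked at before any other gene. Nfib had 3715 counts in shControl, 1115 in shNFIB and 1976 in shMLL1 at day 0, and 2546, 241 and 1774 in the same order at day 7. Kmt2a had 2387, 2731 and 933 counts at day 0, and 2022, 2780 and 850 at day 7. At both days, the lowest count of each target was that of the line with its hairpin, with a log2 ratio to shControl of -1.72 at day 0 and -3.36 at day 7 for Nfib in shNFIB, and of -1.27 and -0.93 for Kmt2a in shMLL1.

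The labelled cell type was compared with marker lists. Of 11 mesenchymal markers, 10 or 11 were above the floor in each library, with Col1a2 at 4443 CPM in shControl at day 0, and Nt5e was at the floor in 3 libraries. Their levels differed too. At day 7 against day 0, of 10 compared, 1 was more than 2-fold higher and 6 lower in shControl (23% and 14.9% of all genes). The higher one was Col1a1, at 2.42-fold, and among the lower ones were Cd44 at 3.71-fold and Col1a2 at 2.28-fold. In shNFIB 1 was higher and 3 lower (16.6% and 13.9%), and in shMLL1 2 were higher and 2 lower (25.8% and 19.9%), with Pdgfra 10.7-fold higher. At day 0 Thy1 was 4.37-fold higher in shNFIB than in shControl, and 4 of 10 were lower in shMLL1 (9.4% of all genes). At day 7, 3 of 10 were higher in shNFIB (8.08% of all genes), with Thy1 at 6.09-fold, Ly6a at 4.22-fold and Cd44 at 2.09-fold, and 0 were past 2-fold in shMLL1. Of the 4 haematopoietic markers, Ptprc and Adgre1 were at or under the floor in all 6 libraries. Cd68, which is also found in lysosomes of other cells, lay between 1.2 and 7.58 CPM, and Csf1r, a macrophage receptor gene, was above the floor in 5 libraries, with 6, 7 and 3 counts at day 0 and 26, 11 and 15 at day 7. At day 7 against day 0, Cd68 was 3.67-fold higher in shControl, 3.32-fold in shNFIB and 3.47-fold in shMLL1. Of the 3 endothelial markers, Cdh5 and Kdr were at or under the floor in all 6 libraries, and Pecam1 was above it in 4, with up to 0.779 CPM (19 counts) in shMLL1 at day 7. Of the 4 muscle markers, Myod1, Myog and Ckm were at or under the floor throughout, and Myh3 was above it in shNFIB at day 7, with 5 counts. Of the 3 epithelial markers, Epcam and Krt18 had 0 counts in all 6 libraries, and Cdh1 lay between 0.203 and 8.95 CPM. At day 7 against day 0, Cdh1 was 8.03-fold lower in shControl, 28.55-fold in shNFIB and 13.69-fold in shMLL1. Of the 10 osteoblast markers, at day 0, 6 were above the floor in shControl, 5 in shNFIB and 4 in shMLL1. Spp1, which codes for osteopontin, was the most abundant at 217, 217 and 224 CPM. Runx2 was at 32.8, 31.5 and 32.2 CPM, whereas Dlx5 was 2.88-fold lower in shNFIB and 3.16-fold lower in shMLL1 than in shControl, and Phex was 3.99-fold higher in shMLL1. Sp7 and Ibsp were at or under the floor in all 3 lines at day 0.

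The members covered a wide range of levels. Igfbp7, which codes for a secreted matrix protein with low affinity for IGFs, led the order in all 6 libraries, between 67.5 CPM per kb in shMLL1 at day 7 and 553 CPM per kb in shNFIB at day 0. Igf2r and Igfbp4 took the next places in every library, and at day 0 Igfbp4 stood behind Igf2r in shControl and shNFIB and ahead of it in shMLL1. At the other end, Igfbp2 had 0 counts in 4 libraries, 5 in shNFIB at day 0 and 2 in shControl at day 7, and was not compared further. Igf2 was at or near the floor in 5 of the 6 libraries.

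**Figure D1:**
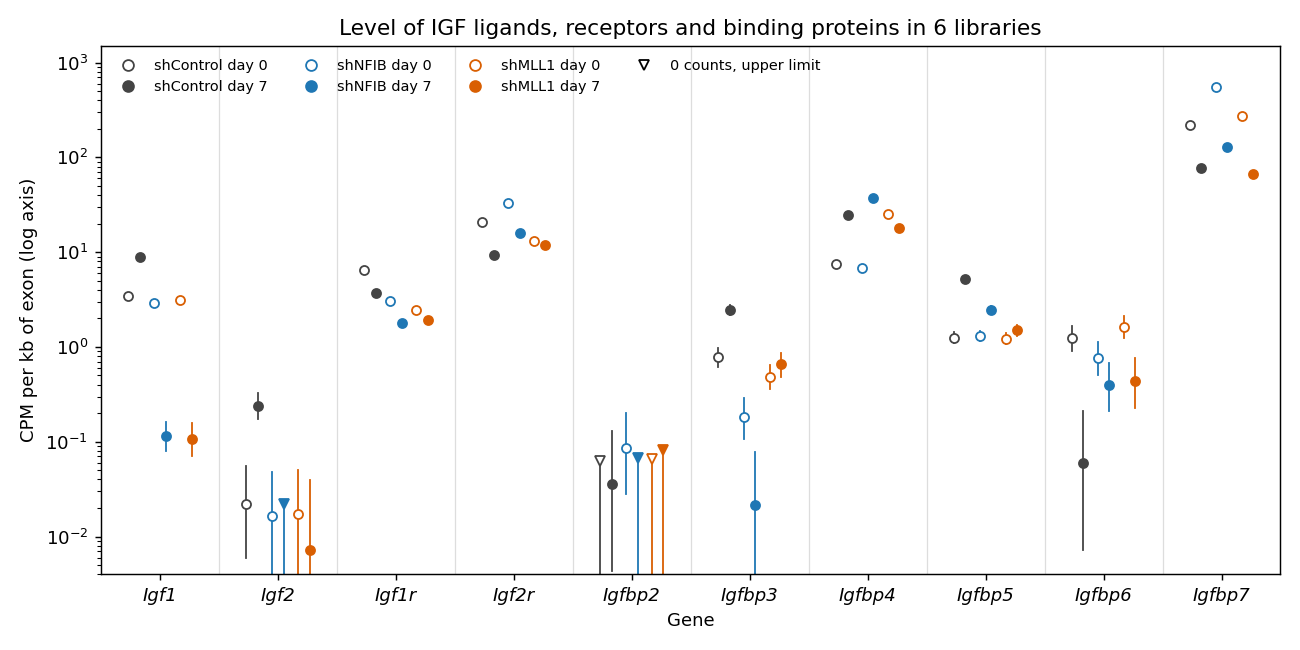
Level of the 10 genes in each library, in CPM per kb of exon on a log axis. Circles are levels, open at day 0 and filled at day 7, bars are 95% counting intervals, and triangles mark the upper limit for a library with 0 counts. Igf1 lies between 2.92 and 3.42 in the day 0 libraries, at 8.91 in shControl at day 7, and near 0.11 in both knockdown lines at day 7.

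Some neighbours in this order did not differ beyond their counting intervals. In shControl at day 0, Igfbp5 was at 1.26 CPM per kb (1.1 to 1.43) and Igfbp6 at 1.24 (0.9 to 1.66). In shNFIB at day 0, Igf1r was at 3.09 (2.94 to 3.24) and Igf1 at 2.92 (2.73 to 3.12). In shControl at day 7, Igf2r was at 9.34 (8.98 to 9.7) and Igf1 at 8.91 (8.58 to 9.26), and with the longest transcript in place of all exons Igf1 was ahead of Igf2r there, at 12.5 against 9.78 CPM per kb. The place of Igf1 moved from 5 of 10 in shControl at day 0 to 4 at day 7, and from 5 to 7 in shNFIB and from 4 to 8 in shMLL1.

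Igf1, the main ligand of IGF1R, was at a like level in the 3 untreated lines and parted widely at day 7. It had 1083 counts in shControl, 913 in shNFIB and 930 in shMLL1 at day 0, which are 33.9, 28.9 and 30.8 CPM, and 2691, 34 and 26 counts at day 7. The shControl library at day 7 held the highest level and both knockdown libraries at day 7 the lowest, with no overlap of the counting intervals between them and the day 0 libraries. Within lines, the log2 ratio of day 7 to day 0 was 1.38 (95% interval 1.28 to 1.48) in shControl, -4.65 (-5.19 to -4.16) for shNFIB and -4.85 (-5.48 to -4.29) for shMLL1. The shControl line thus had 2.6-fold more Igf1 after 7 days of osteogenic medium, and the knockdown lines had 25.1-fold and 28.9-fold less than at their own day 0. Against shControl at the same day, Igf1 was at -0.23 (-0.36 to -0.1) for shNFIB and -0.14 (-0.27 to -0.01) for shMLL1 at day 0, and 76.7-fold and 82.9-fold lower at day 7. In these bulk libraries, fewer cells with the transcript and less transcript per cell cannot be told apart. The difference between the lines in their response was not tested, since 1 library per line and day leaves no spread for it.

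Markers of fat, bone and cartilage cells also differed between the lines at day 7, not all in the same direction. Of the 8 adipocyte markers, 3 were above the floor in each line at day 0, with summed levels of 50.8 CPM in shControl, 63.3 CPM in shNFIB and 18.2 CPM in shMLL1. At day 7, 7 were above the floor in shControl, with a summed level of 165 CPM and Cfd, which codes for the adipokine adipsin, as the most abundant at 69.8 CPM, and 6 in each knockdown line, with summed levels of 93.4 CPM in shNFIB and 32 CPM in shMLL1 and Pparg as the most abundant. Cfd went from 0 counts to 2129 in shControl, 22 in shNFIB and 45 in shMLL1, and Cidec, a lipid droplet protein gene, from 0 to 681, 5 and 17. Of the 7 compared with shControl at day 7, 5 were more than 2-fold lower in shNFIB, beside 13.3% of all genes, and 6 in shMLL1, beside 7.16%. Cebpa was among them in both lines, 2.55-fold and 4.18-fold lower, and it was already 2.59-fold and 7.36-fold lower at day 0. Pparg stood 2.01-fold above shControl in shNFIB and 2.01-fold below it in shMLL1, and at day 0 it was 1.92-fold above and 2.26-fold below. Fabp4 was past 2-fold in neither line, with 141, 116 and 118 counts. Adipoq, the gene for adiponectin, was at or under the floor in all 6 libraries.

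The osteoblast markers had summed levels of 265, 256 and 267 CPM at day 0 in shControl, shNFIB and shMLL1. At day 7, 9 of the 10 were above the floor in shControl and 5 in each knockdown line, with summed levels of 1556, 276 and 362 CPM, of which Spp1 made up 1381, 226 and 304 CPM. Of the 7 compared at day 7, 5 were more than 2-fold lower than in shControl in shNFIB (13.3% of all genes) and 5 in shMLL1 (7.16%). Among the lower ones, Bglap in both lines, Dmp1 in shNFIB and Alpl in shMLL1 reached the minimum of 10 counts only in shControl. Phex went the other way, 10.1-fold higher in shNFIB and 7.55-fold higher in shMLL1. Alpl had 111 counts in shControl, 215 in shNFIB and 2 in shMLL1 at day 7. Of the 4 chondrocyte markers, 3 were above the floor in each library and Acan had 0 counts in all, with summed levels of 411, 270 and 81.5 CPM at day 0 and 155, 95.6 and 112 CPM at day 7. In CPM, Col2a1 was the highest of them in shControl and shNFIB at day 0, and Sox9 in the other libraries. Per kb of exon Sox9 was the most abundant in every library. At day 0 it was at 45.1 CPM per kb against 24.1 for Col2a1 in shControl, and at 21 against 19.7 in shNFIB. Col2a1 had 7124, 5762 and 363 counts at day 0 and 334, 52 and 54 at day 7, and Comp had 30, 6 and 17 counts at day 0 and 767, 150 and 321 at day 7. Of the 4 haematopoietic markers, 2 were above the floor in each line at day 7, with Cd68 the most abundant and summed levels of 7.97, 4.36 and 8.2 CPM in the same order. The part of these cell types, and of the mesenchymal markers, in the levels of Igf1 and the other members was not tested.

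Igf2, the imprinted fetal growth factor gene, was scarce. It had 4, 3 and 3 counts at day 0 in shControl, shNFIB and shMLL1, and 42, 0 and 1 counts at day 7. The 42 counts in shControl at day 7 stood apart from all other libraries, with a log2 ratio of 3.46 (2 to 5.4) to day 0 in that line. At day 7, with its 0 counts set to 3, Igf2 was 13.6-fold lower in shNFIB than in shControl, with a counting limit of -3.40 for the log2 ratio, and in shMLL1, with 1 count, the interval of the log2 ratio was -10.41 to -2.51. The 0 and 1 counts of the knockdown lines do not differ beyond counting error. Its level is uncertain, because 62.8% of its exon bases also lie in exons of Gm49394 on the same strand, which had 0 counts in all 6 libraries, and how reads in both genes were counted is not given in the sources used here.

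The receptor for the ligands, Igf1r, was highest in shControl at both days. It had 3459 counts in shControl, 1638 in shNFIB and 1246 in shMLL1 at day 0, and 1876, 884 and 787 counts at day 7. At day 0 its log2 ratio to shControl was -1.06 (-1.15 to -0.98) for shNFIB and -1.39 (-1.49 to -1.3) for shMLL1, and at day 7 it was -1.04 (-1.16 to -0.92) and -0.93 (-1.05 to -0.81). Igf1r was thus lower in both knockdown lines before any osteogenic stimulus, at a day when Igf1 was at a like level in the 3 lines. Within lines, the ratio of day 7 to day 0 was -0.82 (-0.9 to -0.73) in shControl, -0.79 (-0.91 to -0.68) for shNFIB and -0.36 (-0.49 to -0.23) for shMLL1.

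Igf2r, which codes for the uptake receptor of IGF2, had another order of lines. It had 6190 counts in shControl, 9637 in shNFIB and 3699 in shMLL1 at day 0, and 2649, 4378 and 2730 counts at day 7. The shNFIB library was the highest at each day. Against shControl, the log2 ratio was 0.66 (0.61 to 0.7) for shNFIB and -0.66 (-0.72 to -0.6) for shMLL1 at day 0, and 0.77 (0.7 to 0.84) and 0.36 (0.29 to 0.44) at day 7. Within lines, Igf2r was lower at day 7 in shControl, by -1.16 (-1.22 to -1.09), and in shNFIB, by -1.04 (-1.1 to -0.99). In shMLL1 the value was -0.13 (-0.2 to -0.06), and it turned to 0.07 when libraries were scaled by their totals alone.

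Among the binding protein genes, Igfbp7 made up most of the summed level per kb in every library, between 70.4% in shControl at day 7 and 98.4% in shNFIB at day 0. It had 8388 counts in shControl, 21104 in shNFIB and 9915 in shMLL1 at day 0, and 2846, 4658 and 1991 counts at day 7. Every day 7 library lay below every day 0 library in CPM, and shNFIB was the highest at each day. The log2 ratio of day 7 to day 0 was -1.49 (-1.55 to -1.43) in shControl, -2.08 (-2.13 to -2.04) for shNFIB and -2.01 (-2.08 to -1.94) for shMLL1. In shNFIB against shControl it was 1.35 (1.31 to 1.38) at day 0 and 0.76 (0.69 to 0.82) at day 7. The 85 exon bases that Igfbp7 shares with Polr2b on the other strand leave that part of its count uncertain, since the strand setting is not given in the sources used here.

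**Figure D2:**
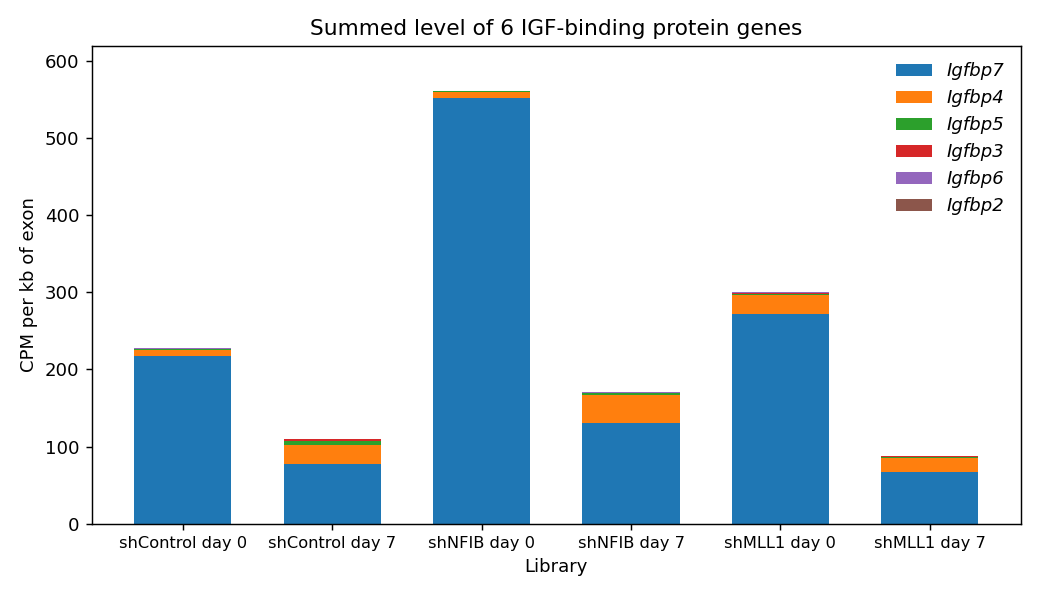
Summed level of the 6 IGF-binding protein genes in each library, in CPM per kb of exon on a linear axis, with 1 colour per gene. The sum is 228 in shControl, 562 in shNFIB and 300 in shMLL1 at day 0, and 110, 170 and 88 at day 7, and Igfbp7 is the largest part of each bar.

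Igfbp4, whose product restrains IGF action until it is cut by pappalysin, followed a different course in shMLL1 than in the other lines. It had 1056 counts in shControl, 942 in shNFIB and 3368 in shMLL1 at day 0, and 3330, 4848 and 1926 counts at day 7. In CPM, the untreated shMLL1 library at 112 CPM was close to the day 7 library of shControl at 109 CPM. The log2 ratio of day 7 to day 0 was 1.72 (1.62 to 1.83) in shControl and 2.46 (2.36 to 2.56) in shNFIB, and -0.5 (-0.58 to -0.42) in shMLL1. Against shControl, shMLL1 was at 1.76 (1.66 to 1.86) at day 0 and -0.47 (-0.55 to -0.39) at day 7, whereas shNFIB was at -0.15 (-0.28 to -0.02) and 0.59 (0.52 to 0.65). The share of Igfbp4 in the summed binding protein level was 3.28% in shControl, 1.2% in shNFIB and 8.41% in shMLL1 at day 0, and 22.6%, 21.8% and 20.3% at day 7.

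Igfbp5, which codes for a binding protein held in bone matrix, had like counts in the untreated lines. It had 241 counts in shControl, 247 in shNFIB and 221 in shMLL1 at day 0, and 943, 439 and 219 counts at day 7. At day 7 the 3 lines lay in the order shControl, shNFIB and shMLL1, with no overlap of their counting intervals. The log2 ratio of day 7 to day 0 was 2.04 (1.83 to 2.25) in shControl, 0.92 (0.7 to 1.16) for shNFIB and 0.29 (0.02 to 0.57) for shMLL1. Against shControl at day 7 it was -1.06 (-1.23 to -0.89) for shNFIB and -1.79 (-2 to -1.57) for shMLL1.

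Igfbp3, which codes for the main IGF carrier in serum, was low in shNFIB at both days. It had 78 counts in shControl, 18 in shNFIB and 46 in shMLL1 at day 0, and 235, 2 and 50 counts at day 7. Its log2 ratio to shControl in shNFIB was -2.1 (-2.93 to -1.35) at day 0 and -6.83 (-9.89 to -4.96) at day 7. In shMLL1 it was -0.68 (-1.24 to -0.14) and -1.91 (-2.38 to -1.47). Within lines, Igfbp3 was higher at day 7 in shControl, at 1.66 (1.28 to 2.05), and lower in shNFIB, at -3.07 (-6.23 to -1.01), and in shMLL1 the interval of 0.43 (-0.18 to 1.04) held 0.

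Igfbp6, whose product binds IGF2 in preference to IGF1, ran the other way and rested on few counts. It had 44, 27 and 55 counts at day 0 in shControl, shNFIB and shMLL1, and 2, 13 and 12 counts at day 7. It was lowest in shControl at day 7, where Igf1, Igf2, Igfbp3 and Igfbp5 were highest. The log2 ratio of day 7 to day 0 was -4.39 (-7.48 to -2.45) in shControl, -0.96 (-2.04 to 0.05) for shNFIB and -1.89 (-2.93 to -0.97) for shMLL1. Against shControl at day 7 it was 2.74 (0.6 to 5.94) for shNFIB and 2.91 (0.74 to 6.11) for shMLL1, intervals that reach far because of the 2 counts in shControl.

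The response of each line to osteogenic medium was then counted over the members. A gene was compared where at least 1 of the 2 libraries had 10 counts or more, and a ratio over 2 in either direction was counted. Between the shControl libraries 9 of the 10 members were compared. Of these, 5 were more than 2-fold higher at day 7 (Igf1, Igf2, Igfbp3, Igfbp4 and Igfbp5), beside 23% of the 16786 genes compared in the same way, and 3 were more than 2-fold lower (Igf2r, Igfbp6 and Igfbp7), beside 14.9%. Igf2, with 4 and 42 counts, and Igfbp6, with 44 and 2, passed the minimum only through the library where they were high. Igf2 was not compared within the knockdown lines. An exact test at an assumed biological coefficient of variation of 0.4 gave 1 member in place of 8, and the counts of the other pairs fell too, as given below. The share of all genes under that test is not given here. The median log2 ratio of the compared members was 1.38, and that of all genes compared was -0.0007.

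In the knockdown lines fewer members were higher at day 7. In shNFIB, 1 of 8 members was more than 2-fold higher at day 7 than at day 0 (Igfbp4), beside 16.6% of 16253 genes, and 4 were lower (Igf1, Igf2r, Igfbp3 and Igfbp7), beside 13.9%. In shMLL1, 0 of 8 members were more than 2-fold higher, beside 25.8% of 17049 genes, and 3 were lower (Igf1, Igfbp6 and Igfbp7), beside 19.9%. In shNFIB, Igfbp3 passed the minimum only through its 18 counts at day 0. Igfbp7 was the member lower in all 3 lines by this rule, and no member was higher in all 3. The median log2 ratio was -1 in shNFIB and -0.43 in shMLL1, with -0.03 and 0.04 for all genes compared.

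**Figure D3:**
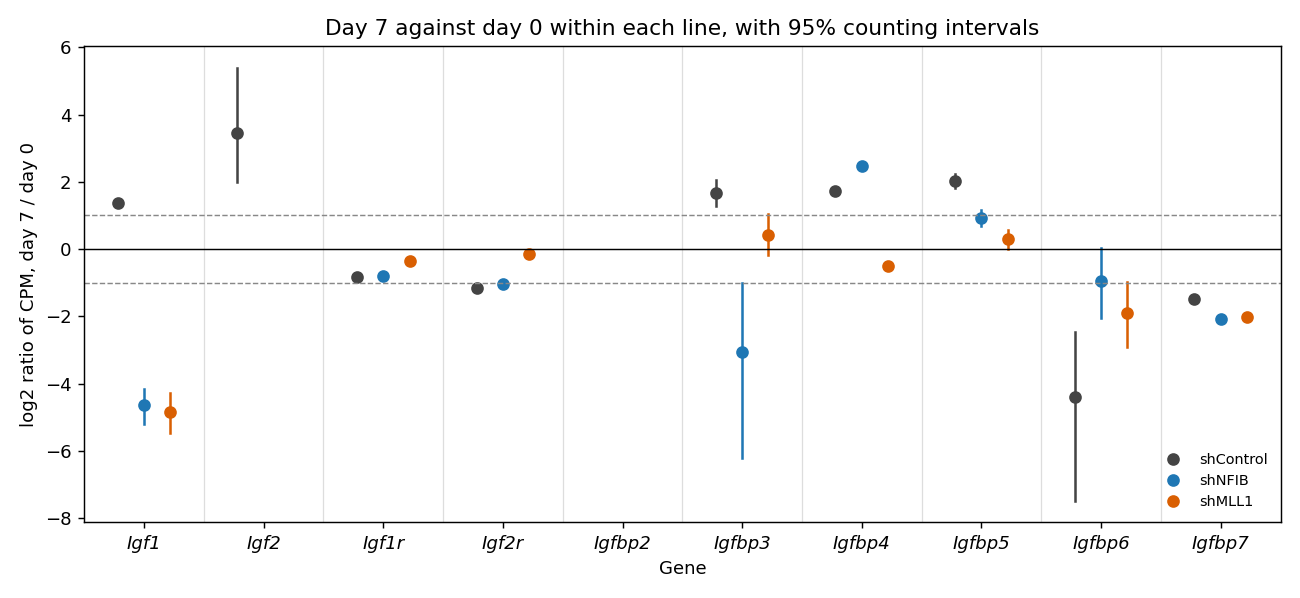
Log2 ratio of day 7 to day 0 in each line for the members with at least 10 counts in 1 of the 2 libraries. Points are ratios of scaled counts, bars are 95% counting intervals, and dashed lines mark a 2-fold change. Igf1 lies at 1.38 in shControl and below -4 in both knockdown lines, and Igfbp7 lies below -1 in all 3 lines.

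Before differentiation, the knockdown comparisons asked which members differed in uncommitted cells. In shNFIB against shControl at day 0, 1 of 8 members was more than 2-fold higher (Igfbp7), beside 7.36% of 15719 genes, and 2 were lower (Igf1r and Igfbp3), beside 6.33%. In shMLL1 against shControl at day 0, 1 of 8 was higher (Igfbp4), beside 11.1% of 16064 genes, and 1 was lower (Igf1r), beside 9.4%. Igf1r was the member lower in both lines. These comparisons share the shControl library of day 0, so its own deviation enters both.

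At day 7 more members were past 2-fold, most of them lower in the knockdown lines. In shNFIB against shControl, 1 of 9 members was higher (Igfbp6), beside 8.08% of 16716 genes, and 5 were lower (Igf1, Igf2, Igf1r, Igfbp3 and Igfbp5), beside 13.3%. In shMLL1 against shControl, 1 of 9 was higher (Igfbp6), beside 8.59% of 16898 genes, and 4 were lower (Igf1, Igf2, Igfbp3 and Igfbp5), beside 7.16%. The median log2 ratio of the members was -1.04 in shNFIB and -0.93 in shMLL1, and that of all genes compared was -0.01 and -0.03. Igf2 and, in shNFIB, Igfbp3 passed the minimum only through shControl, and Igfbp6 passed it only through the knockdown library. In shNFIB 3 of the 6 had their whole counting interval past 2-fold, and the share of all genes with such an interval is not given here. Both comparisons rest on the shControl library of day 7.

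An additive model of line and day, fitted to all 6 libraries, gave the tests that the design allows, with 2 residual degrees of freedom. The libraries of different lines are not repeat cultures, so p-values measure the spread of these 6 libraries about an additive pattern. The quasi-likelihood test also draws each gene's spread towards that of the other genes tested. Its p-values thus rest in part on other genes and not on the 2 residual degrees of freedom alone. Of the 10 members, 8 passed the filter on low counts, and Igf2 and Igfbp2 did not. For day 7 against day 0 over the 3 lines, the quasi-likelihood test of edgeR with Benjamini-Hochberg adjustment at a false discovery rate of 5% called 0 members higher, beside 16.9% of 16742 genes, and 4 lower (Igf1r, Igf2r, Igfbp6 and Igfbp7), beside 16.7%. At an unadjusted p under 0.05 it took 5 members, which added Igfbp5, beside 7873 of the 16742 genes, and DESeq2 called 6, which added Igfbp4 and Igfbp5, both higher, beside 6287 genes.

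The decrease of Igfbp7 was the firmest of these. Its log2 fold change was -1.88 (standard error 0.23, edgeR quasi-likelihood with Benjamini-Hochberg adjusted p = 0.0019), it was lower at day 7 in 3 of 3 lines, and its adjusted p lay between 3.1e-13 and 0.0143 over 13 alternatives, all past the threshold. Igf1r was at -0.67 (standard error 0.19, edgeR quasi-likelihood with Benjamini-Hochberg adjusted p = 0.0314, 0.0078 to 0.251 over the alternatives), and Igf2r at -0.79 (0.25, adjusted p = 0.045, 0.0013 to 0.308). Both were lower in 3 of 3 lines. Both were no longer called without shControl, at -0.58 and -0.59, nor without shNFIB, at -0.59 and -0.65, nor when libraries were scaled by their totals alone, at -0.52 and -0.65, nor without the line term, at -0.69 and -0.82. Igfbp6 was at -2.14 (0.67, edgeR quasi-likelihood with Benjamini-Hochberg adjusted p = 0.0453, 0.0088 to 0.215) in 3 of 3 lines, and was no longer called without shControl, at -1.43, nor without shMLL1, at -2.21, nor by library totals alone, at -1.99, nor without the line term, at -2.04.

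The other 4 members tested were not called in this fit. Igf1 was at -3.01 (standard error 1.42, edgeR quasi-likelihood with Benjamini-Hochberg adjusted p = 0.137, 2.2e-06 to 0.987 over 13 alternatives), lower in 2 of 3 lines. Without shControl it was at -4.75 (0.41, edgeR quasi-likelihood with Benjamini-Hochberg adjusted p = 0.000181), and it was also called in the model without a filter, at -2.99. Igfbp4 was at 1.26 (0.56, edgeR quasi-likelihood with Benjamini-Hochberg adjusted p = 0.117, 1.1e-05 to 0.411), higher in 2 of 3 lines, and was called without shMLL1, at 2.12 (0.24, adjusted p = 0.000712). Igfbp5 was at 1.08 (0.36, edgeR quasi-likelihood with Benjamini-Hochberg adjusted p = 0.0536, 0.0017 to 0.341), higher in 3 of 3 lines, and was called without shMLL1, at 1.52, and without shNFIB at day 7, at 1.15. Igfbp4 and Igfbp5 were also called in the model without a filter, at 1.27 and 1.09, and Igfbp5 by library totals alone, at 1.22. Igfbp3 was at 0.23 (0.75, edgeR quasi-likelihood with Benjamini-Hochberg adjusted p = 0.831, 0.119 to 0.976), and its sign turned without shControl, at -0.79.

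For shNFIB against shControl over both days, the quasi-likelihood test of edgeR called 0 members higher, beside 0.113% of 16742 genes, and 0 lower, beside 0.305%. At an unadjusted p under 0.05 it took 4 members (Igf1, Igf1r, Igfbp3 and Igfbp7), beside 2077 genes, and DESeq2 called 3 (Igf1r, Igfbp3 and Igfbp7), beside 600. Igf1r was at -1.09 (0.23, edgeR quasi-likelihood with Benjamini-Hochberg adjusted p = 0.124, 0.0059 to 1 over 11 alternatives), lower at both days, and Igfbp7 at 1.01 (0.28, adjusted p = 0.211, 0.0134 to 1), higher at both days. Igfbp3 was at -3.89 (0.96, edgeR quasi-likelihood with Benjamini-Hochberg adjusted p = 0.17, 0.00078 to 1), lower at both days. The calls depended on the libraries used. Igf1r and Igfbp7 were called without shMLL1 at day 0, at -1.05 and 1.05, and without shMLL1 at day 7, at -1.08 and 1.02. Igfbp3 was called in the same fits, at -3.84 and -3.87, and without shControl at day 0, at -5.17, or shNFIB at day 0, at -6.48. Igf1 was at -4.25 over both days, and was called without shControl at day 0, at -6.35. With a library of shControl or shNFIB left out, that line has 1 library, so such a value leans on the other day and has no spread of its own for that line.

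For shMLL1 against shControl over both days, the quasi-likelihood test of edgeR called 0 members higher, beside 0.0119% of 16742 genes, and 0 lower, beside 0.0179%. At an unadjusted p under 0.05 it took 2 members (Igf1 and Igf1r), beside 1540 genes, and DESeq2 called 1 (Igf1r), beside 401. Igf1r was at -1.12 (0.23, edgeR quasi-likelihood with Benjamini-Hochberg adjusted p = 0.144, 0.0056 to 1 over 11 alternatives), lower at both days. It was called without shMLL1 at day 7, at -1.31. With a library of a compared line left out, that line has 1 library. Such a value, here and for the genes below, leans on the other day and has no spread of its own for that line. Igf1 was at -4.09 over both days, and was called without shControl at day 0, at -6.27, and without shMLL1 at day 0, at -5.55, again with 1 library for that line. Igfbp4 was at 0.93 over both days, and was called without shMLL1 at day 7, at 2.00, and its sign turned without shMLL1 at day 0, at -0.65. The hairpin targets themselves did not pass this test with all 6 libraries. Nfib in shNFIB was at -2.44 (0.49, edgeR quasi-likelihood with Benjamini-Hochberg adjusted p = 0.115, 6.3e-05 to 1), and was called without shControl at day 0, at -2.71, without shNFIB at day 0, at -3.51, and without shMLL1 at day 0 or day 7, at -2.52 and -2.55. Kmt2a in shMLL1 was at -1.06 (0.23, edgeR quasi-likelihood with Benjamini-Hochberg adjusted p = 0.154, 0.0063 to 1), and was called without shMLL1 at day 7, at -1.13. DESeq2 called both. The lack of a call in these fits does not mean equal levels.

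Other genes of the IGF pathway were taken from 4 lists with 35 genes in all. The first list held 9 genes for the ternary complex partner Igfals, proteases that cut IGF-binding proteins, and their stanniocalcin inhibitors, and all 9 were compared in each pair. Between the shControl libraries 3 were more than 2-fold higher at day 7, beside 23% of all genes compared, and 3 lower, beside 14.9%, led by Stc2 at a log2 ratio of -4.18, Igfals at 3.49, Htra3 at 2.92 and Stc1 at -1.76. Igfals, which codes for the subunit that holds IGF1 and IGFBP3 in a complex, had 13 counts at day 0 and 139 at day 7 in this line, 10 and 13 in shNFIB, and 10 and 28 in shMLL1, where its log2 ratio was 1.79 while Igf1 was lower. In shNFIB 1 was higher at day 7 (16.6% of all genes) and 1 lower (13.9%), with Htra3 at 1.89, and in shMLL1 3 were higher (25.8%) and 5 lower (19.9%), among them Adam12 at 3.6, Htra3 at 2.89, Stc2 at -1.55 and Htra1 at -1.38. Htra3, a secreted serine protease gene, was the list's member called higher over the 3 lines, at 2.55 (0.29, edgeR quasi-likelihood with Benjamini-Hochberg adjusted p = 0.00136, 7.1e-13 to 0.0089 over 13 alternatives) and in 3 of 3 lines. Stc1, which codes for a stanniocalcin, was called lower at -1.36 (0.38, edgeR quasi-likelihood with Benjamini-Hochberg adjusted p = 0.0322, 0.0202 to 0.236) in 3 of 3 lines, but not without shControl, at -1.13, nor without shNFIB, at -1.44.

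The same 9 genes were compared between the lines. In shNFIB at day 0, 2 were higher (7.36% of all genes) and 2 lower (6.33%) than in shControl, with Adam12 at 2.26, Pappa2 at -1.89, Stc1 at -1.54 and Htra3 2.17-fold higher. In shMLL1 at day 0, 4 were higher (11.1%) and 1 lower (9.4%), led by Stc2 at 3.25, Pappa at 2.31, Htra1 at 2.16 and Htra3 at 1.24. Pappa, the gene for pappalysin, which cuts IGFBP4, had 224 counts in shControl, 409 in shNFIB and 1047 in shMLL1 at day 0, and 155, 570 and 399 at day 7. At day 7, 3 were higher (8.08% of all genes) and 1 lower (13.3%) in shNFIB, with Stc2 at 4.28, Igfals at -3.37, Pappa at 1.92 and Adam12 at 1.39, and 5 were higher (8.59%) and 1 lower (7.16%) in shMLL1, led by Stc2 at 5.88, Adam12 at 2.21, Igfals at -1.99 and Pappa at 1.69. Stc2, whose product blocks pappalysin, had 95, 100 and 853 counts at day 0 in shControl, shNFIB and shMLL1, and 5, 94 and 235 at day 7. Stc1, the other stanniocalcin gene, was not higher at day 7, with 38, 19 and 21 counts and a log2 ratio to shControl of -0.96 (-1.83 to -0.13) in shNFIB and, with 0 inside its interval, -0.53 (-1.38 to 0.27) in shMLL1. Over both days, the quasi-likelihood test of edgeR called 0 of the 9 in shNFIB, beside 19 of 16742 genes higher and 51 lower. In shMLL1 it called 0, beside 2 higher and 3 lower. At an unadjusted p under 0.05 it took 4 in each, beside 2077 genes in shNFIB and 1540 in shMLL1. DESeq2 called 1 in shNFIB (Pappa), beside 600 genes, and 3 in shMLL1 (Pappa, Stc2 and Htra1), beside 401.

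The second list held 4 further genes of the IGFBP family. Igfbp1 had 0 counts in all 6 libraries, and Igfbpl1 and Esm1 had fewer than 50 counts in each. Kazald1, a gene of the family that is active in bone, was at a log2 ratio of 2.11 at day 7 against day 0 in shMLL1 and at -1.23 in shMLL1 against shControl at day 0. It was past 2-fold in no other pair. At most 3 genes of this list could be compared in a pair, too few to set a share of the list beside that of all genes.

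The third list held 15 genes for insulin receptors and the proteins that carry the signal on, of which 13 were compared, and Insrr and Irs4 were at the floor. Between the shControl libraries 1 was higher at day 7 (23% of all genes) and 3 lower (14.9%), with Grb14 at -2.01, Grb10 at -1.96, Irs1 at -1.85 and Pik3r1 at 1. In shNFIB 0 were higher (16.6%) and 3 lower (13.9%), with Grb14 at -2.02, Grb10 at -1.76 and Irs1 at -1.32, and in shMLL1 4 were higher (25.8%) and 2 lower (19.9%), led by Grb14 at -2.3, Pik3r1 at 2.23, Foxo3 at 1.39 and Foxo1 at 1.31. Irs1 is a docking protein for the active receptor, whereas Grb10 and Grb14 are adaptors that restrain it, so that genes of opposite roles were lower together. Over the 3 lines the quasi-likelihood test of edgeR called 2 higher (Shc1 and Pik3r1), beside 16.9% of all genes, and 3 lower (Irs1, Grb10 and Grb14), beside 16.7%, with Grb10 at -1.64 (0.23, edgeR quasi-likelihood with Benjamini-Hochberg adjusted p = 0.0033, 1.2e-09 to 0.0293 over 13 alternatives) and lower in 3 of 3 lines. Irs1 was no longer called without shControl, at -0.92, and Shc1 without shControl, at 0.83, or without shNFIB, at 0.78.

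The list was also compared between the lines. In shMLL1 at day 0, 1 of the 13 was higher than in shControl (11.1% of all genes) and 2 lower (9.4%), with Irs1 at -1.23, Grb14 at 1.08 and Pik3r1 at -1.05, and the median log2 ratio was -0.60, with -0.04 for all genes compared. At day 7, 0 were past 2-fold in shMLL1 (8.59% of all genes higher and 7.16% lower), and in shNFIB 0 were past 2-fold at day 0 (7.36% and 6.33%) and 0 at day 7 (8.08% and 13.3%). Insr, the insulin receptor gene, had 1729 counts in shControl, 1730 in shNFIB and 1106 in shMLL1 at day 0, and 1894, 2146 and 2031 at day 7. Per kb of exon, Insr at day 0 was at 3.94, 3.99 and 2.67 CPM, and Igf1r at 6.45, 3.09 and 2.46 CPM. Igf1r was thus above Insr in shControl at day 0, below it in shNFIB and close to it in shMLL1, and at day 7 Insr was the higher in all 3 lines, at 4.52, 5.28 and 6.06 CPM per kb against 3.67, 1.78 and 1.92.

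The last list held 7 genes for RNAs and regulators of the Igf2 locus and for IGF2 mRNA-binding proteins. H19, the maternally expressed RNA next to Igf2, had 42 counts in shControl, 0 in shNFIB and 7 in shMLL1 at day 0, and 15, 0 and 18 at day 7. At day 0, with 0 counts set to 3, shNFIB was 13.8-fold below shControl, and the counting limit of the log2 ratio was -3.43. Plagl1, an imprinted zinc finger gene, was at a log2 ratio to shControl of -1.5 at day 0 and -2.52 at day 7 in shNFIB, and at 1.46 at day 7 in shMLL1. Igf2bp3 was at 2.7 at day 7 against day 0 in shControl, at 2.27 in shNFIB and at 1.84 in shMLL1. Over the 3 lines it was called higher at 2.22 (0.45, edgeR quasi-likelihood with Benjamini-Hochberg adjusted p = 0.0108, 0.001 to 0.0702 over 13 alternatives) in 3 of 3 lines, but not without shControl, at 2.02. Of the 6 genes compared between the shControl libraries 1 was higher (23% of all genes) and 1 lower (14.9%) at day 7, of 5 in shNFIB 1 was higher (16.6%) and 0 lower (13.9%), and of 6 in shMLL1 2 were higher (25.8%) and 0 lower (19.9%). Against shControl, 2 of 6 were lower in shNFIB at day 0 (6.33%) and at day 7 (13.3%), 1 was higher (11.1%) and 1 lower (9.4%) in shMLL1 at day 0, and 1 was higher at day 7 (8.59%). H19 in pairs with shNFIB, or with shMLL1 at day 0, passed the minimum of 10 counts only through the other library. So did Igf2bp3 in pairs with shControl at day 0, where it had 9 counts. Ins2 had 0 counts in all 6 libraries.

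For each member that moved by over 2-fold across the 6 libraries, up to 3 protein-coding genes of most similar pattern are named, by the root mean square difference of log2(CPM + 1) about its mean, with no test. The added 1 shrinks differences at low CPM, so the values do not rank how close members are to their neighbours, and the neighbours of the low members Igfbp3 and Igfbp6, and low genes beside abundant members, are not given. The nearest to Igf1 were Dlk1 at a difference of 1.14, Stard8 at 1.24 and Papss2 at 1.31. Dlk1, a preadipocyte gene, had 294, 121 and 154 counts at day 0 and 98, 0 and 0 at day 7 in shControl, shNFIB and shMLL1, so unlike Igf1 it was lower at day 7 in shControl too. The same held in shControl for Stard8, with 646 counts at day 0 and 452 at day 7, and for Papss2, with 1504 and 270. Igf2 was at or near the floor in all libraries but shControl at day 7, so any gene seen mainly in that library would lie near it.

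The neighbours of Igf1r were Myl9 at 0.12 and Msrb3 at 0.14, and those of Igf2r were Plec at 0.09, 2700049A03Rik at 0.09 and Bcorl1 at 0.12. Those of Igfbp7 were Nmt2 at 0.11, Cyp3a13 at 0.16 and Klhdc8a at 0.2. Myl9 is a contractile gene of mesenchymal cells, and Plec codes for a large cytoskeletal linker. Those of Igfbp4 were Vegfa at 0.21, Gbp4 at 0.27 and Gbp6 at 0.29. Vegfa codes for the main endothelial growth factor and had 2867, 1970 and 5505 counts at day 0 and 6505, 9886 and 4334 at day 7. The nearest to Igfbp5 was Mep1a at 0.14.

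Several members lie next to other genes of the family. On GRCm38, Igfbp2 (chr1:72824503-72852474, + strand) and Igfbp5 (chr1:72857932-72874884, - strand) are 5457 bases apart with no annotated gene between them. With Igfbp2 near the floor, their levels could not be compared. Igfbp1 and Igfbp3 on chromosome 11 are 3539 bases apart, and Igfbp1 had 0 counts. Igf1 lies on chromosome 10 (87858265 to 87937042, + strand), and Igf1r on chromosome 7 (67952827 to 68233668, + strand).

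RefSeq promoter windows on GRCm38.p6, 250 bases before to 50 after each start, were found for all 10 members, 14 windows in all. They were searched on both strands for the palindromic binding motif of NFI proteins and for TTGGCA, the part bound by 1 NFI subunit. The palindrome was in 0 of the 14 windows, beside 0.0369% of 32544 windows of all genes, and TTGGCA was in 1, that of Igfbp5, beside 14.1%. A match only describes these letters, and no match says only that they are not in this window. The window of Igf1 lies wholly within exon bases of a longer annotated transcript and is not printed. The stretches ahead of the annotated genes are shown for Igfbp3 and Igfbp5, the binding protein genes that were lower in both knockdown lines at day 7, from chr11:7213924-7214173 (- strand, 250 bases) and chr1:72874885-72875115 (- strand, 231 bases), with TTGGCA in capitals, which starts at base 126 of the Igfbp5 stretch.
Igfbp3: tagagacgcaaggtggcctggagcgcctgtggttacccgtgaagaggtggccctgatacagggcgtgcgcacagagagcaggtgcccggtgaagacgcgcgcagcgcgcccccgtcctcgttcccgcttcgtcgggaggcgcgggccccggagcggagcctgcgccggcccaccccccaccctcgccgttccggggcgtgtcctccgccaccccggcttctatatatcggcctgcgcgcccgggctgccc
Igfbp5: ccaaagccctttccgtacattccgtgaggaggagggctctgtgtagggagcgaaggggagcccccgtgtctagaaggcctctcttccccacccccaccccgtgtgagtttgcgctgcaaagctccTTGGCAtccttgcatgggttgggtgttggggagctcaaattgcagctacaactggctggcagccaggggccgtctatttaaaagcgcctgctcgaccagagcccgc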

How the data were processed

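The authors deposited raw counts per Ensembl gene, 1 library for each line and day, made with Trimmomatic 0.39, HISAT2 2.2.1 on GRCm38, SAMtools 1.12 and HTSeq 0.11.1. The annotation release, the strand setting and the overlap mode are not given in the sources used here. Exon lengths and positions came from GENCODE M21. Scaling and quasi-likelihood fits of line and day used edgeR 4.0.16 in R 4.3.3, with filterByExpr, a biological coefficient of variation of 0.28 and DESeq2 1.42.0 as an alternative. The standard errors given with the edgeR fits were worked back from the F statistic, as the size of the log2 fold change over the square root of F. Pairs of libraries were compared by ratios with Clopper-Pearson intervals (Python 3.11.15, scipy 1.17.1, matplotlib 3.10.9), with 0 counts set to 3. Line was kept as a term, as the deviations at day 0 and day 7 correlated over 16742 genes, at 0.436 for shControl, 0.419 for shNFIB and 0.258 for shMLL1. Other alternatives were library totals, filters, call rules, and libraries or lines left out. Genes named were all members and targets, up to 4 per pathway list and comparison past 2-fold with 50 counts or more, up to 3 of the most similar to each member, called genes of the lists, and markers. Insr, H19 and a few genes at the floor were named after their values were seen. The members and lists were chosen with earlier results of these data known.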

Additional observations from a re-analysis of the deposited data

Results flagged for a closer look

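Values of the same comparison that differed in direction between lines or days were set aside, where 1 counting interval lay above 0 and another below it. None of these differences between lines or days was tested, since there was 1 library for each line and day. For day 7 against day 0, the log2 ratio of Igf1 was 1.38 in shControl, -4.65 in shNFIB and -4.85 in shMLL1. That of Igfbp3 was 1.66 in shControl and -3.07 in shNFIB, and that of Igfbp4 was 1.72 in shControl, 2.46 in shNFIB and -0.50 in shMLL1.

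Against shControl, some values changed direction between the days. In shNFIB, Igfbp4 was at -0.15 at day 0 and 0.59 at day 7. In shMLL1, Igfbp4 was at 1.76 and -0.47, Igf2r at -0.66 and 0.36, and Igfbp7 at 0.32 and -0.19 in the same order. The lines also differed in direction against shControl on the same day, Igf2r at day 0 with 0.66 in shNFIB and -0.66 in shMLL1, Igfbp4 with -0.15 and 1.76 at day 0 and 0.59 and -0.47 at day 7, and Igfbp7 with 0.76 and -0.19 at day 7. These comparisons within a day share the shControl library of that day.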

How the results depend on the processing

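The count of members past 2-fold depended on the rule and the comparison. The share of all genes under the other rules below is not given here, so no background stands beside these counts. For day 7 against day 0, intervals wholly past 2-fold gave 8 of 8 in shControl, 4 of 5 in shNFIB and 2 of 3 in shMLL1, and an exact test at an assumed biological coefficient of variation of 0.2 gave 8, 4 and 3. At an assumed 0.4, it went from 8 to 1 in shControl, from 5 to 1 in shNFIB and from 3 to 1 in shMLL1. For shNFIB against shControl it went from 3 to 0 at day 0 and from 6 to 3 at day 7, and for shMLL1 from 2 to 0 and from 5 to 1. At an assumed 0.2 the count for shNFIB was 1 at day 0 and 3 at day 7, and for shMLL1 it was 2 and 4. Intervals wholly past 2-fold gave 2 and 3 for shNFIB and 2 and 4 for shMLL1, and a minimum of 50 counts gave 3 for shMLL1 at day 7.

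The tests over 6 libraries depended on the libraries and the model. For day 7 against day 0, the 4 members called became 2 to 5 with a library or line left out. The 5624 genes called became 2410 to 5652 in those fits. Members called were 2 with library totals, 7 without a filter and 1 without the line block. These last fits tested 16742, 29043 and 15741 genes in the same order. How many of all genes they called is not given here, so no background stands beside their member counts. For shNFIB against shControl, 0 members became 0 to 3 with a library left out, 3 with DESeq2, 3 without a filter and 1 with the 4 libraries compared. The 70 genes called became 82 to 1165, 600, 688 and 593 in the same order, and 0 without the day block. For shMLL1, 0 members became 0 to 2 with a library left out, 1 with DESeq2 and 2 without a filter, and the 5 genes called became 42 to 720, 401 and 526, 199 with the 4 libraries compared and 0 without the day block.

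Some log2 fold changes turned sign. Igfbp3 for day 7 was at -0.80 without shControl at day 0, -0.78 without shControl at day 7 and -0.79 without that line, over a range of -0.80 to 1.07. In shNFIB, Igfbp4 was at -0.84 without shNFIB at day 7 (up to 1.04), Igfbp5 at 0.21 without shControl at day 7 (down to -1.24), and Igfbp6 at -0.47 without shControl at day 7, -0.35 without shNFIB at day 7 (up to 2.39) and -0.20 without the day block. In shMLL1, Igf2r was at 0.17 and 0.35 without shControl or shMLL1 at day 0 (down to -0.56), Igfbp3 at 0.049 without shControl at day 7 (down to -2.39), Igfbp4 at -0.65 without shMLL1 at day 0 (up to 2.00), and Igfbp7 at -0.19 and -0.04 without shControl or shMLL1 at day 0 (up to 0.37). The cause was not tested. Library totals shifted the median ratio of all genes by -0.11 to 0.21. Of the other log2 fold changes of members, 203 were the same, 39 stronger and 24 weaker, and of the log2 ratios 157 were the same and 20 moved. Of the levels per kb, 25 moved and 24 did not. Protein identity between members was not run.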
